A study of Mus musculus with 18 samples.

Results

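NF-kB is a family of transcription factors that act as pairs of subunits, and it switches on genes of inflammation, cell survival and immunity when receptors for cytokines or microbial products are engaged. Inhibitors of the IkB family hold the subunits in the cytoplasm until IKK kinases mark them for destruction, and many of these inhibitors are themselves NF-kB target genes, so that the pathway limits its own activity. In brain injury the pathway is best known for its activity in microglia, astrocytes, endothelium and infiltrating leukocytes. The 10 genes described here are the 5 subunit genes Rela, Relb, Rel, Nfkb1 and Nfkb2 and the 5 inhibitors or regulators Nfkbia, Nfkbie, Nfkbiz, Tnfaip3 and Bcl3. They were listed by symbol, with earlier results of these data known, and are 10 of 50559 genes in the count table. All 10 passed the low count filter, which left 18452 genes.

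RNA-seq was carried out on thalamus of wild-type (WT) mice in 18 libraries, 6 in each of 3 groups. The control group received saline, the model group received Coll IV, and the intervene group received Coll IV plus remodelin, an inhibitor of the acetyltransferase NAT10 given here in a study of thalamic haemorrhage. All 3 groups share the WT genotype. The labels do not expand Coll IV and give no strain, age, sex, dose, time after injury or batch, and they do not say whether each library is a separate animal, so p-values measure the spread between these libraries. In bulk tissue, fewer cells of a type and less RNA per cell cannot be told apart.

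Libraries held 28481225 to 118461420 counts, of which the 10 genes took 1788 to 8876. Within each group the libraries fell into replicates 1 to 3 and replicates 4 to 6, a division seen in the data and not stated in the labels. Thalamic neuron markers, a check of the labelled tissue, summed to 474 to 901 CPM (counts scaled to library size) in replicates 1 to 3 of control and model but to 118 to 278 CPM in their replicates 4 to 6, while intervene had 609 to 683 and 442 to 647 CPM. Cortical and hippocampal neuron markers summed to 529 to 3462 CPM in replicates 1 to 3 of the 3 groups and to 2465 to 6459 CPM in replicates 4 to 6. Every comparison is therefore given over all replicates and within each set of 3.

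RefSeq promoters (GRCm38.p6, 250 bases before to 50 after the transcript start) were found for 7 of the 10 genes: Rela, Rel, Nfkb2, Nfkbia, Nfkbie, Tnfaip3 and Bcl3. Relb, Nfkb1 and Nfkbiz had none in the table. Because these genes are textbook examples of NF-kB acting on its own regulators, the windows were searched on both strands for the kappa-B consensus, the 10-base sequence that NF-kB pairs bind. A match was present in 6 of the 7 genes, against 5.14% of all genes and 4.51% of the 32851 windows in the table. The 30-base stretches below are written 5′ to 3′ on the strand of the gene, with the kappa-B match in capitals, and show how near the start these matches lie.
Bcl3, chr7:19822734-19822763, minus strand: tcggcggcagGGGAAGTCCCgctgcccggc
Nfkb2, chr19:46304688-46304717, plus strand: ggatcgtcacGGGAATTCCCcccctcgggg
Nfkb2, chr19:46304716-46304745, plus strand: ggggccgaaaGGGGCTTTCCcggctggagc
Nfkb2, chr19:46305695-46305724, plus strand: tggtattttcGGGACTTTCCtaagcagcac
Nfkbia, chr12:55492657-55492686, minus strand: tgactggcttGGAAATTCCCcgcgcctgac
Tnfaip3, chr10:19015403-19015432, minus strand: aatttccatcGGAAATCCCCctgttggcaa
Tnfaip3, chr10:19015516-19015545, minus strand: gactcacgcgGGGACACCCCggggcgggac
Rel, chr11:23771042-23771071, minus strand: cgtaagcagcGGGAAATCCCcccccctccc
Nfkbie, chr17:45555584-45555613, plus strand: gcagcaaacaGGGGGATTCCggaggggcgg

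With the first transcribed base counted as 0, the match began at position -29 in Nfkbia, -92 in Rel, -106 in Nfkbie, and -12 and -125 in Tnfaip3. In Bcl3 it began at position 2, inside the transcribed sequence. Nfkb2 has 3 annotated starts in the table, and the first 2 matches above began at -39 and -11 of the first start. The Nfkb2 match at chr19:46305695-46305724 began at position 10 of the second start and at -225 of the third, and a further match, not shown, began at -236 of the second. In Rel, and at position -39 of Nfkb2, a second match overlapped the first by all but 1 base. Rela had no match in its window. These matches describe sequence, not binding, which was not measured, and the counts refer to GRCm39, so the coordinates serve only to locate the printed stretches.

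Nfkbia, which encodes IkB-alpha, the main inhibitor that NF-kB induces to end its own activity, had the highest level of the 10 genes. It averaged 17.3 ± 5.38 CPM per kilobase of annotated exon (SD, n = 18 libraries; range 9.65 to 27.6). Rela, which encodes p65, the main activating subunit of the canonical arm, came next at 6.31 ± 1.21 CPM per kilobase (range 4.51 to 9.46), below every Nfkbia value. Relb, the activating subunit of the non-canonical arm, averaged 1.39 ± 0.315 CPM per kilobase (range 1.01 to 2.04), below every Rela value.

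The next 5 genes followed at like levels per kilobase, and in this order the range of each gene from Relb down overlapped that of its neighbour. Nfkb1, which encodes the p105 precursor of p50, averaged 0.919 ± 0.161 CPM per kilobase. Bcl3, an unusual IkB protein that works in the nucleus on p50 and p52, averaged 0.750 ± 0.735. Nfkbie, which encodes IkB-epsilon, averaged 0.749 ± 0.171 CPM per kilobase. Nfkb2, which encodes the p100 precursor of p52 and is itself an inhibitor until processed, averaged 0.682 ± 0.244, and Nfkbiz, which encodes the nuclear IkB-zeta, 0.656 ± 0.211 CPM per kilobase. The lowest levels were those of Rel, which encodes the lymphoid subunit c-Rel, at 0.328 ± 0.0614 and of Tnfaip3, which encodes the ubiquitin-editing inhibitor A20, at 0.247 ± 0.10 CPM per kilobase.

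The order below Rela depends on the gene length used. The deposited FPKM values, which imply 22600 bases for Nfkb2, place Nfkb2 lowest at a mean of 0.137 FPKM, whereas its whole gene spans 11407 bases in RefSeq. Comparisons of counts or CPM between libraries of 1 gene are not touched by this. Those made with log2 of FPKM plus 0.1 or 1 are, since the added constant shrinks fold changes more where FPKM is low. Variation between the 18 libraries was widest for Bcl3, with a coefficient of variation of 98.0% in CPM, followed by Tnfaip3 (40.7%) and Nfkb2 (35.7%), and lowest for Nfkb1 (17.5%).

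**Figure D1:**
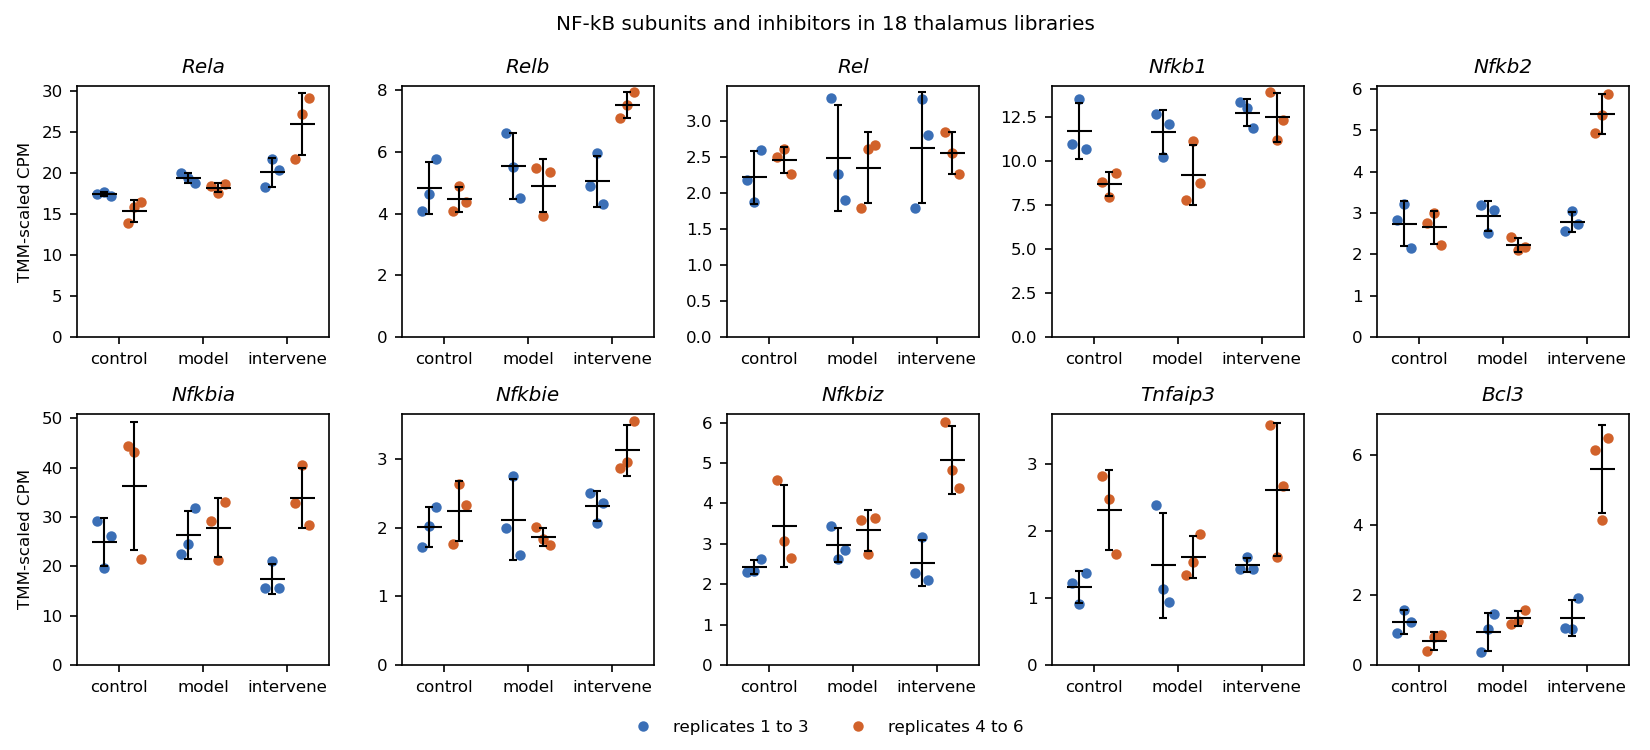
Normalised level of each gene (CPM after TMM scaling, linear axis from 0) in the 18 thalamus libraries, by group and replicate set; points are libraries, and bars are the mean and SD of each set of 3. Replicates 4 to 6 of intervene stand above the other sets in Bcl3 (4.16 to 6.50 CPM), Nfkb2 (4.94 to 5.88 CPM) and Relb (7.10 to 7.94 CPM), whereas Rel lies between 1.78 and 3.31 CPM in all groups.

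Setting model against control compares transcript levels of the 10 genes after Coll IV alone with those after saline. Activity of the pathway itself was not measured. Of the subunits and inhibitors 0 of 10 passed the test over all replicates, where 0% of the 18452 genes did. The fit over all replicates had no term for the replicate set, so differences between the sets added to its spread. With such a term, 0 of 10 also passed in this contrast and in intervene against model. Rela had 13.8 to 17.6 CPM in control (median 16.8) and 17.6 to 19.9 CPM in model (median 18.7), a log2 fold change of 0.20 ± 0.10 (SE; edgeR quasi-likelihood test, Benjamini-Hochberg adjusted p = 1). Nfkbia, Tnfaip3 and Bcl3, all induced by NF-kB in textbook accounts, had log2 fold changes of -0.18 ± 0.25, -0.17 ± 0.32 and 0.26 ± 0.47. For these 3 genes the ranges of control and model overlapped. Without adjustment, 0 of the 10 genes and 310 of all genes had a p under 0.05, and DESeq2 and limma-voom called 0 of the 10 genes and 2 and 0 of all genes.

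Within replicates 1 to 3 the comparison of model with control also called 0 of the 10 genes and 0% of all genes (0 and 1075 with an unadjusted p under 0.05). There Rela had 18.7 to 19.9 CPM in model, wholly above control at 17.2 to 17.6 CPM (log2 fold change 0.15 ± 0.11, adjusted p = 0.901), a separation found in this 1 of the 10 genes and in 5.67% of all genes. Within replicates 4 to 6 it called 0 and 0% (2 and 1876 with an unadjusted p under 0.05). The first of those 2 was Rela, which had 17.6 to 18.6 CPM in model and 13.8 to 16.4 CPM in control, so that the groups did not overlap (log2 fold change 0.25 ± 0.11, adjusted p = 0.470). The other was Bcl3, which had 1.17, 1.24 and 1.58 CPM in model replicates 4 to 6 against 0.385, 0.798 and 0.864 CPM in control (log2 fold change 0.95 ± 0.42, adjusted p = 0.475). A model set lying wholly above control was seen in these 2 of the 10 genes and in 9.96% of all genes. DESeq2 called 0 of the 10 genes in either set, but 11 of all genes in replicates 1 to 3 and 221 in replicates 4 to 6, and limma-voom called 0 of the 10 and 0 of all genes in both. The difference of this contrast between the replicate sets was called in 0 of the 10 genes and 0% of all genes (1 and 2079 with an unadjusted p under 0.05) and 0 of the 10 genes by DESeq2 and limma-voom, which called 217 and 0 of all genes.

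Setting intervene against model compares these transcript levels with and without remodelin after Coll IV. Over all replicates it called 0 of the 10 genes and 0% of all genes by edgeR, with 4 and 531 at an unadjusted p under 0.05, and DESeq2 and limma-voom called 0 of the 10 genes and 2 and 0 of all genes. Bcl3 had the widest difference: 1.04 to 6.50 CPM in intervene (median 3.04) against 0.368 to 1.58 CPM in model (median 1.21), a log2 fold change of 1.61 ± 0.47 (adjusted p = 0.988). Nfkb2 followed with 2.57 to 5.88 CPM (median 3.99) against 2.10 to 3.19 CPM (median 2.47) and a log2 fold change of 0.66 ± 0.21 (adjusted p = 0.988). For both genes the lower intervene libraries lay within the model range, and these lower libraries were replicates 1 to 3.

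Within replicates 1 to 3, 0 of the 10 genes passed the test, as did 0% of all genes (1 and 700 with an unadjusted p under 0.05), and DESeq2 and limma-voom called 0 of the 10 and 1 and 0 of all genes. The median of the 10 log2 fold changes was 0.03 with 6 of 10 positive, against -0.00 over all genes with 49.6% positive. The 1 gene counted at the unadjusted level was Nfkbia, with 15.7, 21.0 and 15.5 CPM in intervene and 22.5, 24.6 and 31.8 CPM in model. All 3 intervene libraries lay below all 3 model libraries, a difference of -0.59 ± 0.26 on the log2 scale (adjusted p = 1). Such complete separation downward was found in this 1 gene and in 3.78% of all genes.

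Within replicates 4 to 6, 3 of the 10 genes rose in intervene against model by the edgeR test: the subunits Rela and Nfkb2 and the nuclear IkB protein Bcl3. The share of all genes called was 5.71%, or 1053 of 18452 genes, 675 higher and 378 lower. The median log2 fold change of the 10 genes was 0.61 and 10 of 10 were positive, against -0.00 and 49.9% over all genes. Without model replicate 4 only Nfkb2 passed, and 159 genes in all. Without intervene replicate 5 the count over all genes was 222. The split of all calls depended on scaling: 64.1% were higher with TMM, 47.7% with library totals, 43.4% with log2 of FPKM plus 0.1 and 40.0% with log2 of FPKM plus 1, while all 10 fold changes stayed positive under each of these.

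Bcl3 showed the largest change. Intervene replicates 4, 5 and 6 had 6.15, 4.16 and 6.50 CPM (182, 124 and 190 counts), and the model libraries had 1.17, 1.24 and 1.58 CPM (42, 42 and 45 counts). The lowest intervene library thus lay well above the highest model library. The mean was 5.60 ± 1.26 against 1.33 ± 0.215 CPM (SD, n = 3 each), a log2 fold change of 2.08 ± 0.40, or 4.21-fold (edgeR adjusted p = 0.0106). In replicates 1 to 3 the same gene had 1.07, 1.04 and 1.93 CPM in intervene and 0.368, 1.03 and 1.45 CPM in model, and the groups overlapped. The change lost its call without model replicate 4, at a log2 fold change of 1.99 and an adjusted p of 0.0656.

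Nfkb2 had 4.94, 5.37 and 5.88 CPM in intervene replicates 4 to 6 and 2.43, 2.10 and 2.17 CPM in the model libraries. All 3 intervene values were above all 3 model values, and also above every other library of the series, whose highest Nfkb2 value was 3.23 CPM. The means were 5.40 ± 0.474 and 2.23 ± 0.172 CPM, a log2 fold change of 1.27 ± 0.19, or 2.41-fold (edgeR adjusted p = 0.0025). In replicates 1 to 3 the values were 2.57, 3.04 and 2.73 CPM in intervene and 3.19, 2.52 and 3.08 CPM in model, with overlap. Of the 10 genes, Nfkb2 was also the only one for which the difference between the replicate sets passed the test in this contrast. That difference was 1.35 ± 0.27 on the log2 scale (adjusted p = 0.0409), in a test that called 0.352% of all genes. It was lost without any 1 of 9 libraries, with adjusted p from 0.0587 to 0.1245: model replicates 2 to 6 and intervene replicates 1, 3, 5 and 6.

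Rela had 21.7, 27.1 and 29.1 CPM in intervene replicates 4 to 6 and 18.5, 17.6 and 18.6 CPM in model. The groups did not overlap, although intervene replicate 4 was close to the level of intervene replicate 2 (21.7 CPM). The means of 26.0 ± 3.82 and 18.2 ± 0.569 CPM gave a log2 fold change of 0.51 ± 0.11, or 1.43-fold (edgeR adjusted p = 0.0150). The call was lost without model replicate 4 (adjusted p = 0.0652), model replicate 5 (0.0535), intervene replicate 5 (0.0713) or intervene replicate 6 (0.0569), with log2 fold changes from 0.41 to 0.52. In replicates 1 to 3 Rela had 18.2, 21.7 and 20.3 CPM in intervene and 19.9, 19.4 and 18.7 CPM in model, which overlapped.

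**Figure D2:**
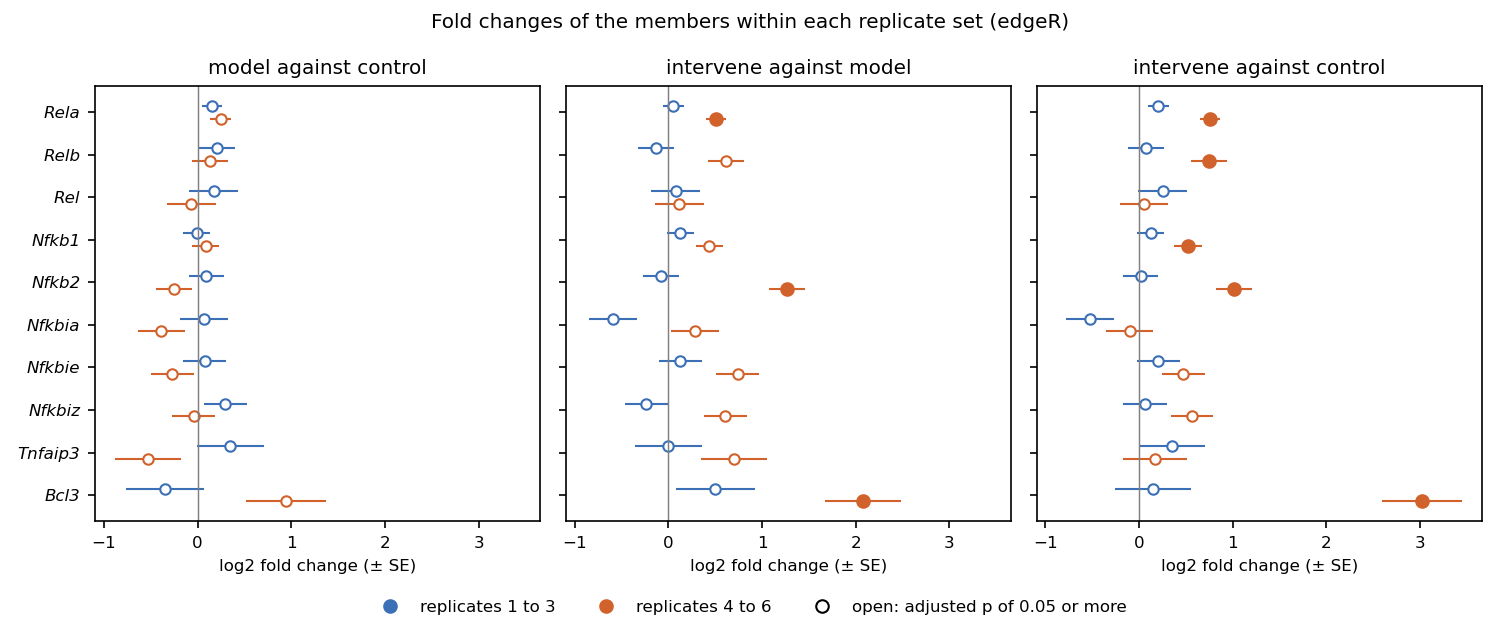
Log2 fold change of each gene within replicates 1 to 3 and within replicates 4 to 6 for the 3 contrasts, from edgeR; points are estimates, bars are SE, and filled points have an adjusted p under 0.05. In intervene against model, Bcl3 (2.08), Nfkb2 (1.27) and Rela (0.51) are filled in replicates 4 to 6 and no gene is filled in replicates 1 to 3.

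The other 7 genes did not pass in intervene against model within replicates 4 to 6. Relb had 7.10, 7.52 and 7.94 CPM in intervene and 5.47, 3.91 and 5.36 CPM in model (log2 fold change 0.61 ± 0.19, adjusted p = 0.0656). Nfkbie had 2.87, 2.95 and 3.56 CPM against 2.01, 1.84 and 1.75 CPM (0.74 ± 0.23, adjusted p = 0.0651). Both genes were fully separated between the groups, as were Nfkb1 and Nfkbiz. DESeq2 called both, with adjusted p of 0.0274 and 0.0317, making 5 of the 10 genes by that tool.

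Nfkb1 had 13.9, 11.2 and 12.3 CPM in intervene replicates 4 to 6 and 7.79, 11.1 and 8.75 CPM in model (0.44 ± 0.15 on the log2 scale, adjusted p = 0.0858). Nfkbiz had 6.02, 4.83 and 4.38 CPM against 3.60, 2.75 and 3.64 CPM (0.61 ± 0.23, adjusted p = 0.121). In all, intervene lay wholly above model in 7 of the 10 genes in this set, against 14.5% of all genes. The 3 genes with overlap were Tnfaip3 (0.70 ± 0.35, adjusted p = 0.239), Nfkbia (0.28 ± 0.25, adjusted p = 0.535) and Rel (0.12 ± 0.26, adjusted p = 0.825). The 2 best known feedback inhibitors, IkB-alpha and A20, were thus among the genes for which no difference was detectable here. Tnfaip3 ranged from 1.61 to 3.58 CPM in intervene replicates 4 to 6 on only 48 to 106 counts, and Nfkbia from 28.3 to 40.5 CPM.

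The comparison of intervene with control used the same intervene libraries, so it is not independent of the one above. Over all replicates 0 of the 10 genes and 0% of all genes passed by edgeR, with 5 and 1551 at an unadjusted p under 0.05. DESeq2 called 2 of the 10, Bcl3 (adjusted p = 0.0234) and Rela (0.00504), and 73 of all genes, and limma-voom called 0 of either. Rela had 18.2 to 29.1 CPM in intervene (median 21.7), wholly above control at 13.8 to 17.6 CPM. Its log2 fold change was 0.49 ± 0.10 (edgeR adjusted p = 0.184), and with the replicate set as a term in the model the adjusted p was 0.0472. The share of all genes separated upward in this contrast was counted only within the sets (7.64% in replicates 1 to 3, 21.6% in replicates 4 to 6). It was not counted over all replicates, so how unusual the Rela separation is cannot be said. Bcl3 had a log2 fold change of 1.86 ± 0.47 (edgeR adjusted p = 0.310), and its groups overlapped.

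Within replicates 1 to 3, intervene against control again called 0 of the 10 genes and 0% of all genes (0 and 1579 with an unadjusted p under 0.05) and 0 of the 10 by DESeq2 and limma-voom, which called 57 and 0 of all genes. Rela at 18.2 to 21.7 CPM lay just above control at 17.2 to 17.6 CPM (0.21 ± 0.11 on the log2 scale, adjusted p = 0.615). Tnfaip3 at 1.43 to 1.62 CPM lay just above control at 0.905 to 1.37 CPM (0.35 ± 0.36, adjusted p = 0.822). Such separation upward was present in these 2 genes and in 7.64% of all genes.

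Within replicates 4 to 6, 5 of the 10 genes rose in intervene against control: 4 of the 5 subunits and Bcl3. The test called 25.9% of all genes there, so that the count of members is set against a high background. Bcl3 went from 0.385, 0.798 and 0.864 CPM in control to 6.15, 4.16 and 6.50 CPM, a log2 fold change of 3.02 ± 0.43, or 8.11-fold (edgeR adjusted p = 0.0002). Nfkb2 went from 2.76, 3.0 and 2.23 CPM to 4.94, 5.37 and 5.88 CPM (1.01 ± 0.19, adjusted p = 0.0013). Rela went from 13.8, 15.8 and 16.4 CPM to 21.7, 27.1 and 29.1 CPM (0.76 ± 0.11, adjusted p = 0.0002).

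Relb, the partner of p52 in the non-canonical arm, went from 4.10, 4.91 and 4.38 CPM in control to 7.10, 7.52 and 7.94 CPM in intervene within this set (0.75 ± 0.19, adjusted p = 0.0088). Nfkb1 went from 8.78, 7.98 and 9.30 CPM to 13.9, 11.2 and 12.3 CPM (0.52 ± 0.15, adjusted p = 0.0149). In replicates 1 to 3, Nfkb1 was already at 10.7 to 13.5 CPM in control and at 11.9 to 13.3 CPM in intervene. Relb had 4.09 to 5.76 CPM in control and 4.32 to 5.95 CPM in intervene there. Within replicates 4 to 6 the groups did not overlap in any of the 5 genes, nor in Nfkbie, and this separation was found in 21.6% of all genes. The Nfkb1 call was lost with library totals (adjusted p = 0.0612), with FPKM plus 0.1 (0.0795) or plus 1 (0.0860), and without control replicate 5 (0.0703) or intervene replicate 4 (0.0593). Nfkbia did not pass, with 44.4, 43.1 and 21.4 CPM in control and 32.9, 40.5 and 28.3 CPM in intervene (-0.10 ± 0.25, adjusted p = 0.803).

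The contrast of intervene with control differed between the replicate sets for 3 of the 10 genes, against 17.9% of all genes. The difference was 2.87 ± 0.58 on the log2 scale for Bcl3 (edgeR adjusted p = 0.0042), 1.00 ± 0.27 for Nfkb2 (adjusted p = 0.0178) and 0.55 ± 0.15 for Rela (adjusted p = 0.0215). All 3 were larger in replicates 4 to 6. The Nfkb2 difference was lost without the low count filter (adjusted p = 0.0582). The Rela difference was lost without control replicate 4 (adjusted p = 0.0599) or intervene replicate 1 (0.0583), 5 (0.0501) or 6 (0.0534).

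Replicates 4 to 6 were also compared with replicates 1 to 3 inside each group, to show how far the genes moved without any change of label. In intervene, 5 of the 10 genes were higher in replicates 4 to 6, where 14.9% of all genes were called: Bcl3 (2.05 ± 0.41 on the log2 scale, edgeR adjusted p = 0.0053), Nfkb2 (0.95 ± 0.19, adjusted p = 0.0055), Nfkbiz (1.01 ± 0.23, adjusted p = 0.0107), Nfkbia (0.96 ± 0.26, adjusted p = 0.0232) and Rela (0.37 ± 0.11, adjusted p = 0.0306). Nfkbia had 32.9, 40.5 and 28.3 CPM there against 15.7, 21.0 and 15.5 CPM, and Nfkbiz had 6.02, 4.83 and 4.38 CPM against 2.28, 3.17 and 2.11 CPM. Both were fully separated between the sets, but the share of all genes separated in this way was not counted. Without intervene replicate 1, 3 or 5 the count fell to 3, 2 and 3 genes, with Bcl3 and Nfkb2 called each time. The Rela call was lost without intervene replicate 1 (adjusted p = 0.1327), 3 (0.0772), 5 (0.1037) or 6 (0.1463), and with library totals (0.115), no filter (0.0640), or FPKM plus 0.1 (0.0918) or plus 1 (0.0864). The Nfkbia call was lost without replicate 1 (0.0888), 3 (0.0839) or 5 (0.0919) and with no filter (0.0638), and the Nfkbiz call without replicate 3 (0.0504).

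In control, 2 of the 10 genes differed between the sets, against 38.2% of all genes. Nfkb1 was lower in replicates 4 to 6, at 8.78, 7.98 and 9.30 CPM against 10.96, 13.5 and 10.7 CPM (-0.43 ± 0.14, edgeR adjusted p = 0.0266). Tnfaip3 was higher, at 2.82, 2.48 and 1.66 CPM against 1.23, 0.905 and 1.37 CPM (0.99 ± 0.35, adjusted p = 0.0341). Both calls were lost with FPKM plus 0.1 or plus 1, with adjusted p from 0.0587 to 0.0721, and that of Nfkb1 with no filter (0.0503). Both genes were fully separated, but the share of all genes so separated between the sets was not counted. The count of called genes among the 10 was 0 without control replicate 2, 4 or 5, 1 without replicate 1 and 4 without replicate 6. In model 0 of the 10 genes passed, against 18.7% of all genes (1 and 6306 with an unadjusted p under 0.05) and 0 of the 10 by DESeq2 and limma-voom. Without model replicate 5, Nfkb1 passed there at -0.49 on the log2 scale (adjusted p = 0.0380).

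Genes around the 10 were followed through lists of the pathway in the contrast of intervene with model within replicates 4 to 6. Of all genes tested, 3.66% rose and 2.05% fell in this contrast. The lists were chosen with earlier results of these data known, so their counts are not independent evidence. Upstream receptors, a list that includes the adaptor Myd88, rose in 7 of 14 tested genes and fell in 0, with a median log2 fold change of 0.61. Tlr2, a receptor for bacterial lipoproteins and products of damaged tissue, rose from 1.24 ± 0.25 to 6.28 ± 1.28 CPM (SD, n = 3 each; log2 fold change 2.34 ± 0.25, edgeR adjusted p = 0.0003). Tnfrsf1a, the main TNF receptor, rose from 11.9 ± 0.586 to 23.3 ± 0.689 CPM (0.97 ± 0.13, adjusted p = 0.0012). Cd14, the co-receptor for lipopolysaccharide, rose from 4.44 ± 0.527 to 11.2 ± 2.07 CPM (1.34 ± 0.29, adjusted p = 0.0169), and Ltbr, a receptor that feeds the non-canonical arm, from 10.5 ± 1.30 to 16.5 ± 1.12 CPM (0.64 ± 0.14, adjusted p = 0.0173).

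A separate list held kinases and other adaptors that join these receptors to the IkB proteins, and the difference between the lists was not tested. Of 25 tested, 1 rose and 0 fell, with a median log2 fold change of 0.04. The 1 gene was Tab2, an adaptor of the kinase TAK1, at 42.7 ± 3.41 CPM in model and 56.7 ± 6.17 CPM in intervene (0.41 ± 0.10, adjusted p = 0.0216). The catalytic IKK genes Chuk and Ikbkb had 14.8 ± 3.31 and 23.6 ± 1.10 CPM in intervene against 16.1 ± 1.77 and 23.4 ± 2.56 CPM in model and did not pass. In the non-canonical arm 0 of 5 genes passed, with a median of 0.23. Its 2 genes of lowest p were Traf1 (2.48 ± 1.05 against 1.19 ± 0.382 CPM, adjusted p = 0.186) and Birc3 (2.27 ± 0.397 against 1.59 ± 0.200 CPM, adjusted p = 0.378).

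Other inhibitors of the pathway rose in 2 of 15 tested genes and fell in 0, with a median of 0.12. These were Irak3, a brake on Toll-like receptor signalling (0.946 ± 0.316 to 2.60 ± 1.01 CPM; 1.46 ± 0.39, adjusted p = 0.0397), and N4bp1 (28.7 ± 3.21 to 38.6 ± 5.59 CPM; 0.43 ± 0.12, adjusted p = 0.0438). In replicates 1 to 3, N4bp1 averaged 40.5, 39.9 and 34.8 CPM in control, model and intervene. Irak3 averaged 1.14, 1.36 and 1.15 CPM there. Of 29 established target genes, 7 (Cxcl1, Cxcl2, Tnf, Il6, Sele, Selp and Clec4e) were too low to be tested. Of the other 22, 10 rose and 0 fell. No conclusion is drawn from this count, since low targets may have passed the filter only through a group in which they were high.

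Among the targets, Csf1, a growth factor of microglia and macrophages, rose from 13.0 ± 1.74 to 25.3 ± 4.40 CPM (0.96 ± 0.14, edgeR adjusted p = 0.0021). The chemokine genes Ccl3, Ccl4 and Ccl5 rose from 0.822 ± 0.201, 0.642 ± 0.294 and 0.264 ± 0.132 CPM to 5.40 ± 1.92, 4.67 ± 2.02 and 1.27 ± 0.556 CPM. Their log2 fold changes were 2.70 ± 0.55, 2.87 ± 0.56 and 2.25 ± 0.43 (adjusted p of 0.0129, 0.0106 and 0.0101). The limit of the filter applies to these chemokine genes too, since they were low in model. In replicates 1 to 3, 0 genes of any of the 5 lists passed in this contrast, with medians between -0.00 and 0.13. The difference between the replicate sets passed for Tlr2 (2.31 on the log2 scale, adjusted p = 0.0245), Tnfrsf1a (0.88, adjusted p = 0.0449) and Csf1 (0.95, adjusted p = 0.0457).

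**Figure D3:**
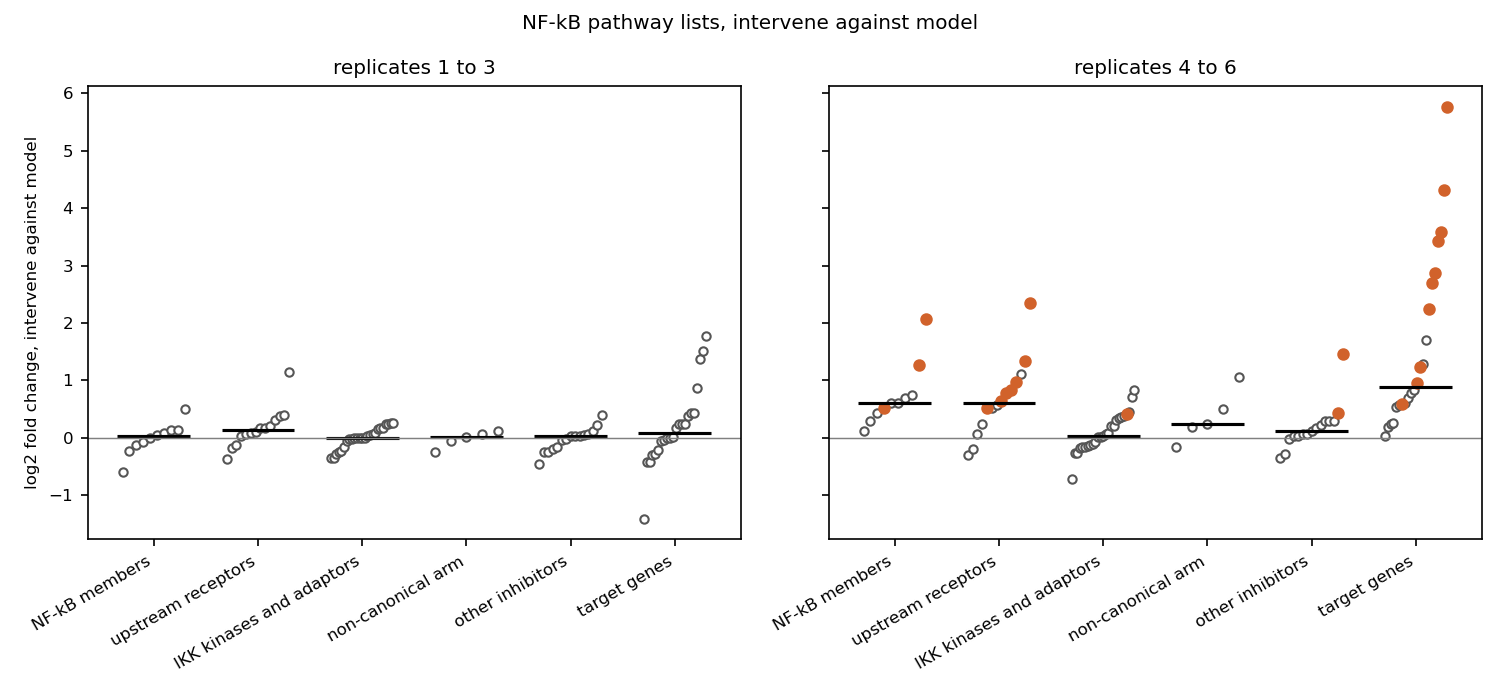
Log2 fold change of intervene against model for the 10 genes and for 5 lists of NF-kB pathway genes, in replicates 1 to 3 and 4 to 6; points are genes, filled where the edgeR adjusted p is under 0.05, and bars are list medians. In replicates 4 to 6 the medians are 0.61 for the 10 genes, 0.61 for upstream receptors, 0.04 for kinases and adaptors, 0.23 for the non-canonical arm and 0.12 for other inhibitors.

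Markers of cell types and brain regions moved in the same libraries, and their part in the results above was not tested. The counts below stand against 3.66% of all genes higher and 2.05% lower. These marker lists too were chosen with earlier results of these data known. Between model and intervene in replicates 4 to 6, 0 of 12 microglia markers passed, and their summed level was 428 to 459 CPM in model and 447 to 531 CPM in intervene. Astrocyte markers rose in 4 of 8 genes (summed 2518 to 2869 against 2599 to 3192 CPM), led by Gfap, which went from 190 ± 38.7 to 542 ± 108 CPM. Monocyte and neutrophil markers rose in 1 of 6 tested of 13 listed, S100a9, and their summed level was 14.3 to 17.1 CPM in model and 28.8 to 35.98 CPM in intervene. In replicates 1 to 3 this sum was 17.6 to 48.3 CPM in model and 26.9 to 47.7 CPM in intervene. Of that list, Cd177 was at 0 in 2 of 3 libraries of both groups and Mmp8 in 2 of 3 model libraries, and Mmp9 is also in the target list. Erythroid markers rose in 2 of 5 (142 to 185 against 269 to 411 CPM), and in endothelium 1 of 8 fell (125 to 143 against 98.1 to 114 CPM). Lymphocyte markers passed in 0 of 2 tested of 10 listed (19.2 to 54.0 against 10.1 to 35.8 CPM), and Trac was at 0 in every library.

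Region markers differed in the same contrast. Thalamic neuron markers rose in 6 of 9 genes, from a summed 163 to 278 CPM in model to 442 to 647 CPM in intervene, and their part in the changes of Rela, Nfkb2 and Bcl3 was not tested. Cortical and hippocampal markers fell in 1 of 11 (4273 to 6252 against 2465 to 5458 CPM). Choroid plexus markers, of which 0 of 10 passed, ranged from 62.7 to 114 CPM in model and from 131 to 4133 CPM in intervene. Intervene replicates 4, 5 and 6, with 6.15, 4.16 and 6.50 CPM of Bcl3, had 131, 4133 and 3541 CPM of choroid plexus markers.

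**Figure D4:**
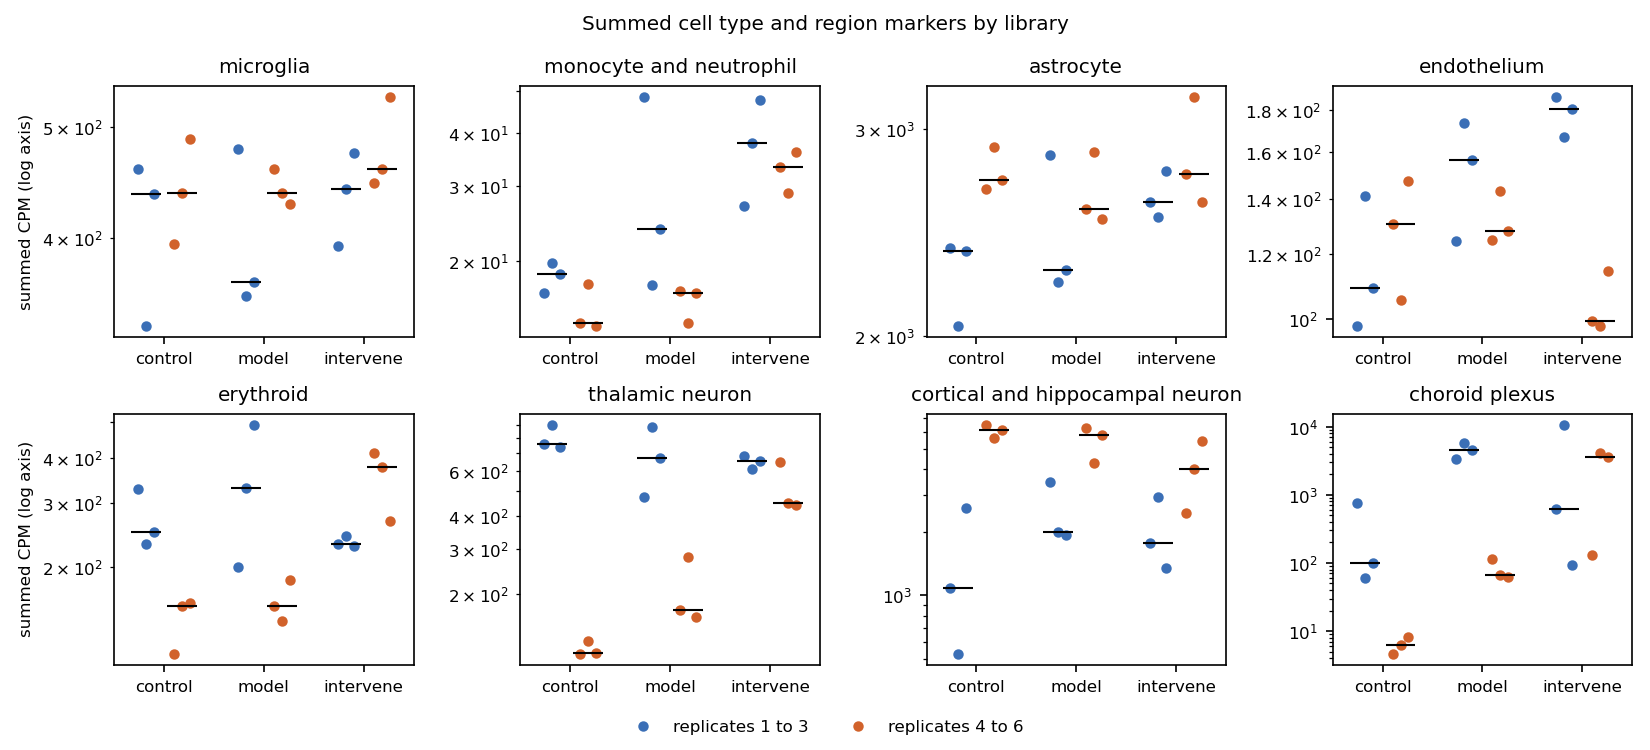
Summed CPM of the marker genes of 8 cell types or regions in each of the 18 libraries (log axes), by group and replicate set; points are libraries and bars are medians. Thalamic neuron markers are at 118 to 132 CPM in control replicates 4 to 6, 163 to 278 CPM in model and 442 to 647 CPM in intervene, while microglia markers stay between 335 and 531 CPM in all libraries.

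The 10 genes did not vary as 1 block across the 18 libraries. Pearson's r of log2 CPM, a description over libraries that share group and set differences, was highest for Rela with Relb (0.799), Rela with Bcl3 (0.768), Rela with Nfkb2 (0.763) and Nfkbiz with Tnfaip3 (0.743). It was lowest for Nfkb1 with Nfkbia (-0.51), and Nfkbia had an r of -0.05 with Rela. Rel had low values with the other subunits, such as 0.177 with Rela and 0.117 with Nfkb2, and -0.06 with Bcl3, while Nfkb2 with Nfkbia was at 0.319.

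Over all tested genes with a standard symbol, those most like Rela across the 18 libraries were Tnfrsf1a (r = 0.906), Myl12a (0.898) and Pdlim4 (0.897). Those most like Bcl3 were Gnai2 (r = 0.896), Lcp2 (0.888) and Aspscr1 (0.872). Those most like Nfkb2 were Tnfrsf1a (r = 0.886), Gbp2 (0.827) and Sbno2 (0.820), and those most like Nfkbia were Arl4d (r = 0.891), Ddit4 (0.890) and Ube4b (0.874). Once the mean of each group and set was removed, r fell to 0.422 for Rela with Tnfrsf1a, 0.677 for Bcl3 with Gnai2 and 0.542 for Nfkb2 with Tnfrsf1a, and was 0.925 for Nfkbia with Ddit4. For Nfkb2 it fell to 0.032 with Gbp2 and 0.453 with Sbno2. The remaining named pairs had an r of 0.434 to 0.817 after this step.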

How the data were processed

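RNA was extracted with TRIzol and captured with oligo(dT) beads, per the labels' protocols. The authors deposited raw counts and FPKM for the same genes in every library. HISAT2, featureCounts and GRCm39 are named in the submitters' processing notes; their versions, the strand setting and the counting of reads or fragments are not stated in the sources used here. Of the 180 count values of the 10 genes, 78.3% are even. Reads shared by overlapping or antisense genes cannot be told apart without the strand setting.

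The robust quasi-likelihood F test of edgeR 4.0.16 (R 4.3.3) was applied to the counts of all 18 libraries, after filterByExpr and TMM, with Benjamini-Hochberg adjustment over all 18452 genes and a threshold of 0.05. A fit with 1 mean per group served the comparisons over all replicates, and a fit with 1 mean per group and replicate set the others. CPM are TMM-scaled, and SE is the size of the log2 fold change divided by the square root of F. Levels per kilobase use merged GENCODE M21 exons. Deposited FPKM values entered only as alternatives, as log2 of FPKM plus 0.1 or 1, with limma 3.58.1; DESeq2 1.42.0, limma-voom, other scalings, no filter, a replicate block, and leaving out each library were also tried. The scripts were tested on simulated data.

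The 10 genes and all lists were chosen with earlier results of these data known. Of each pathway list, up to 4 called genes of lowest p in intervene against model, replicates 4 to 6, are named, or, with none called, the 2 of lowest p; for at most 4 of the 10 genes, the 3 genes of highest Pearson r over 18 libraries are named. A few markers outside this rule (Gfap, S100a9, Cd177, Mmp8, Trac) were named after their values were seen. Chuk, Ikbkb and Myd88 were too.

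Whether equal replicate numbers pair libraries was checked by the correlation of their deviations from group means: it was 0.18 to 0.63 for model with control, over 0.1 in 6 of 6 pairs, which meets the rule used here, and the block changed no call in that contrast. It was over 0.1 in 5 of 6 replicate numbers for intervene with model and 3 of 6 for intervene with control. These values carry the division into replicate sets: from group-and-set means, model with control gave -0.18 to 0.24, and 3, 1 and 0 of 6 pairs were over 0.1, so the rule is not met within the sets. Libraries of a group differed by a chi-square of at least 11.4 per degree of freedom, so none repeated another within sampling noise.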

Additional observations from a re-analysis of the deposited data

Results flagged for a closer look

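In the model group, replicate 2 had 2.75 CPM of Nfkbie, far above the next library at 2.01 CPM, and in the control group replicate 4 had 4.58 CPM of Nfkbiz, with the next at 3.07 CPM. In both cases the gap to the nearest library took a share of the group's range (0.644 and 0.666) above Dixon's critical value for 6 libraries. These are 2 of 30 sets of 6 values examined, and chance gives about 1 in 20.

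The effect of intervene against model differed between the replicate sets for Nfkb2, by 1.35 on the log2 scale (edgeR adjusted p = 0.0409). The effect of intervene against control differed between the sets for Rela by 0.55 (adjusted p = 0.0215), for Nfkb2 by 1.00 (adjusted p = 0.0178) and for Bcl3 by 2.87 (adjusted p = 0.0042). In all 4 cases the 3 intervene libraries of replicates 4 to 6 lay above the 3 libraries of the other group, whereas replicates 1 to 3 overlapped except for Rela against control. Thalamic, cortical and choroid plexus markers differ between the same sets, and their part was not tested.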

How the results depend on the processing

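No called gene changed sign under any alternative run. In intervene against model within replicates 4 to 6, 3 genes passed, 5 with DESeq2 and 1 to 3 when single libraries were left out. The difference between the replicate sets in that contrast (1 gene, Nfkb2) fell to 0 with library totals, without the low count filter, with log2 of FPKM plus 0.1 or plus 1, and with the replicate block (adjusted p = 0.0758), and was 0 to 1 without single libraries; the block changed no other call, and could not be fitted for replicates 4 to 6 against 1 to 3 within a group. In intervene against control over all replicates the count of 0 became 2 with DESeq2 and 1 with the replicate set as a term. For replicates 4 to 6 against 1 to 3, the count in control (2) was 1 without the filter, 0 with FPKM plus 0.1 or plus 1 and 0 to 4 without single libraries; in intervene (5) it was 3 without the filter and 2 to 6 without single libraries; in model (0) it was 0 to 1. The cause of these changes was not tested. Halving the counts, added after most were seen to be even, changed no call. Over all genes, intervene against model within replicates 4 to 6 called 1880 with DESeq2 and 1715 from the 9 libraries of that set alone. Bcl3 and Tnfaip3, at 12 to 190 and 30 to 150 counts per library, are limited by depth.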
